A study of Mus musculus with 9 samples.

Results

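The myeloid C-type lectin receptors described here are 6 genes, Clec4e, Clec4d, Clec4n, Clec5a, Clec7a and Clec4a2, of 18194 genes measured in mouse blood. They were chosen by name, with earlier results of these data known, and each was read from 1 probe set, the brightest on average among those that the annotation ties to a single gene symbol. All 6 had such a probe set and no filter on low values was applied, so that every one of them entered the tests. The blood came from 9 C57BL/6 mice of 8 to 9 weeks and about 25 g, hybridised to 1 array each, and the sources used here do not give their sex. The 3 PT + HS mice received a polytrauma (PT) of head injury, femoral fracture and blunt chest trauma. Hemorrhagic shock (HS) was added 1 h later by bleeding, which held the arterial pressure at 30 mmHg over 60 min, and the mice were then infused over 30 min with fluid at 4 times the drawn volume. PT + HS mice were also given norepinephrine as required to hold their arterial pressure afterwards, with no amount reported for PT mice. The 3 PT mice received the same trauma without bleeding, and both injured groups were sampled 4 h after the trauma. The 3 Ctrl mice were left unmanipulated and sampled as soon as they were anesthetized. Anesthesia time, analgesia and catheters therefore differ between the injured groups and Ctrl together with the injury, and their parts cannot be told apart. Between PT + HS and PT the parts of bleeding, fluid and norepinephrine cannot be told apart either.

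C-type lectin receptors are surface sensors by which neutrophils, monocytes and dendritic cells recognise sugars and lipids of microbes as well as material from dying cells. Most of the activating ones have no signaling motif of their own. They pair with the adaptors Fcer1g or Tyrobp, whose tyrosine motifs recruit the kinase Syk, and from there a complex of Card9, Bcl10 and Malt1 leads to NF-kB and to cytokine genes. Clec4e (Mincle) senses mycobacterial glycolipids and the nuclear protein Sap130 set free by dying cells, and Clec4d is its partner, which helps to bring it to the cell surface. Clec4n (dectin-2) binds mannans of fungi. Clec5a signals through Tyrobp and is known from flavivirus infection and joint inflammation. Clec7a (dectin-1) binds beta-glucans and carries a Syk-recruiting motif in its own tail. Clec4a2 is the inhibitory member, with a tail motif that recruits the phosphatases Ptpn6 and Ptpn11.

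All 6 genes lie on mouse chromosome 6. In the RefSeq annotation of GRCm38.p6 the protein-coding genes Clec4b1, Clec4a2, Clec4b2, Clec4n, Clec4d and Clec4e follow each other in this order. Clec7a lies elsewhere on the chromosome between Clec1a and Olr1, and Clec5a lies apart between Olfr460 and Tas2r138. The 250 bases before the transcription start are shown for 3 of them, 5′ to 3′ on the strand of the gene. They are Clec4e and Clec4d, neighbours whose levels followed each other most closely over the arrays, and Clec7a, whose differences from Ctrl were the smallest of the 6. Capitals mark matches, on either strand, to a C/EBP motif (TTGCNNAA) or to a PU.1 motif (GAGGAA), chosen because the C/EBP factors and PU.1 (gene Spi1) are master regulators of myeloid cells. The windows are Clec4e at chr6:123289872-123290121 on the minus strand, Clec4d at chr6:123261857-123262106 on the plus strand and Clec7a at chr6:129472780-129473029 on the minus strand, from RefSeq on GRCm38.p6.
Clec4e: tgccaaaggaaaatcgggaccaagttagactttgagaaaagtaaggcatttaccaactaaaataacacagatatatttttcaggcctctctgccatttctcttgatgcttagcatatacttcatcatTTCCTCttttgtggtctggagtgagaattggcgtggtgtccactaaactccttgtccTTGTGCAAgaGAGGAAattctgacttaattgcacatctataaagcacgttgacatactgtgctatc
Clec4d: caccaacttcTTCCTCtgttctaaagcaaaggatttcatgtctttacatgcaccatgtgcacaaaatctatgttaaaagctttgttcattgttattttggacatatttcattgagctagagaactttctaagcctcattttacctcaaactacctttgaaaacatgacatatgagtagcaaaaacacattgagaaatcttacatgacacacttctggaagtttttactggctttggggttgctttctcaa
Clec7a: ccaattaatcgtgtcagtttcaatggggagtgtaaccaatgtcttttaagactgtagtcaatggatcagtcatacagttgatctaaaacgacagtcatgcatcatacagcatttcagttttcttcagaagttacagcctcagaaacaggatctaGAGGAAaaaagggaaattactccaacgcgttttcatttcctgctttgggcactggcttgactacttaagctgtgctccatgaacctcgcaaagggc

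The Clec4e window held 1 C/EBP match, TTGTGCAA, at 66 to 59 bases before the start, and 2 PU.1 matches, at 123 to 118 and at 56 to 51 bases before it. The Clec4d window held no C/EBP match and 1 PU.1 match, at 240 to 235 bases before the start. Clec7a had no C/EBP match and 1 PU.1 match, at 96 to 91 bases before the start. Of the others, Clec5a had 2 PU.1 matches and no C/EBP match, Clec4a2 had neither, and Clec4n was not analysed here. Among all 32851 promoter windows of this length in the table, 9.56% held the C/EBP motif and 23.3% the PU.1 motif. The matches describe the letters of these windows and the motifs do not overlap each other there.

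Expression is given on the log2 scale, as normalized between arrays by the authors, with an array median of 3.63 to 3.76, and all differences are log2 differences. Leukocyte genes lay above the array medians, with means over the arrays of 11.93 for S100a8 (neutrophils), 8.36 for Cd79b (B cells) and 8.21 for Cd3e (T cells). Alas2 (red cell precursors) had 14.30 and Pf4 (platelets) 11.64. The shares of the cell types were not measured. PT replicate 2 stood apart, with correlations over all probe sets of 0.912 to 0.949 to the other arrays, whereas no pair among the remaining 8 arrays was below 0.961. Differences of the receptor genes that involve PT are therefore also given without this array. Counts of the gene lists are given without it where they change, and single other genes only in part. The shares of all genes given below are those with all 9 arrays. Two-sided tests were made with limma on all 9 arrays. The study's thresholds asked for 1.5-fold or more together with an unadjusted p under 0.05. No receptor gene had an adjusted p (Benjamini-Hochberg over all 18194 genes) under 0.05 in any comparison. Over all genes, 0.0055% reached that level for PT + HS minus Ctrl, and 0 genes for PT minus Ctrl and for PT + HS minus PT, where 4.86%, 5.82% and 2.87% had an unadjusted p under 0.05. The limma p-values set each group difference against the spread within the groups, pooled over the 9 arrays and moderated across all genes. The number of arrays limits the precision. In whole blood a larger share of the cells that express a gene and more of its RNA per cell cannot be told apart.

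In PT + HS blood 5 of the 6 receptor genes were higher than in Ctrl at the study's thresholds, against 1.99% of all genes that were higher and 1.29% that were lower, and the exception was Clec7a, which passed as well with the replicate number as a block. The same 5 genes had no overlap between the 3 PT + HS and the 3 Ctrl animals, which held for 6.55% of all genes in this direction. In PT blood 3 of 6, Clec4e, Clec4d and Clec4n, were higher than in Ctrl at the thresholds, against 1.41% of all genes that were higher and 2.26% that were lower, and the same 3 did not overlap with Ctrl, against 4.32% of all genes. Between PT + HS and PT none of the 6 passed, where 0.726% of all genes were higher and 0.396% lower at the thresholds, and none was without overlap, against 3.61% of all genes without overlap upwards and 3.56% downwards. The median difference of the 6 genes was 1.48 on the log2 scale for PT + HS minus Ctrl, 1.32 for PT minus Ctrl and 0.23 for PT + HS minus PT. Over all genes these medians lay at -0.014, -0.000253 and -0.00315. The 2 comparisons with Ctrl share the same 3 control arrays and are not independent of each other.

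**Figure D1:**
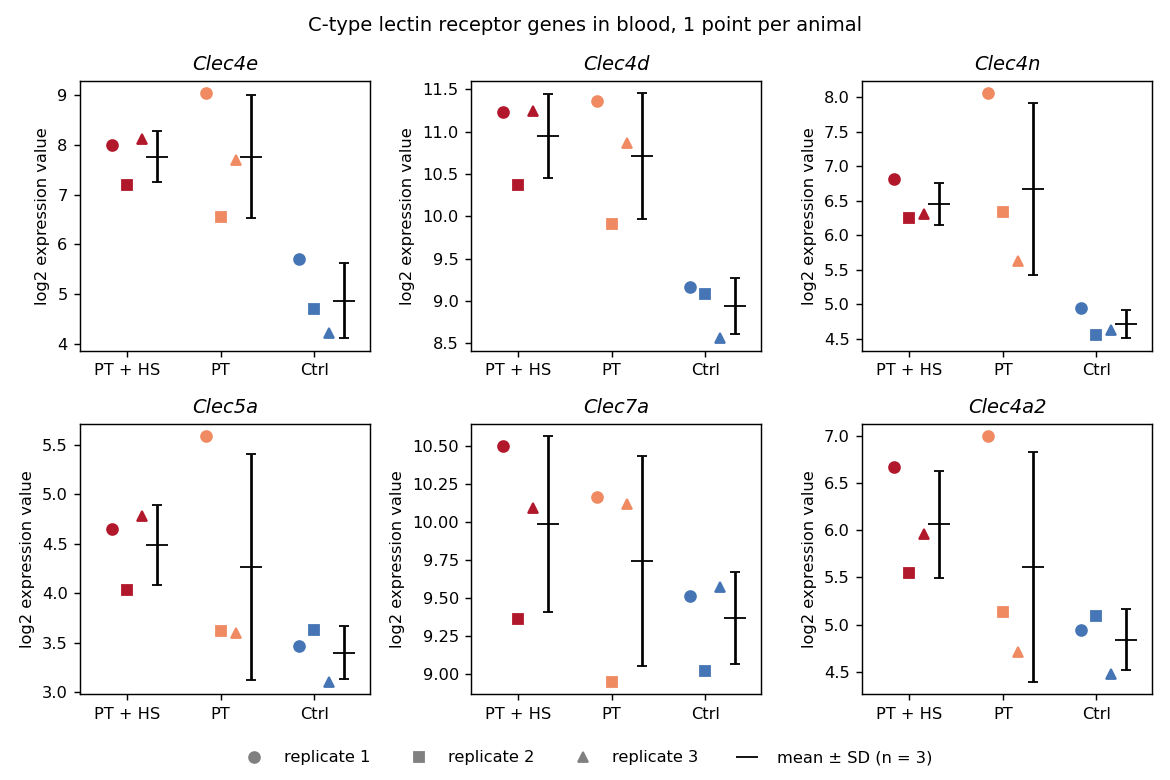
Expression of the 6 receptor genes in blood as log2 values (vertical axis, a separate scale for each gene), with 1 point per animal and the mean ± SD of 3 animals beside each group. Clec4e and Clec4d of all injured animals lie above all Ctrl animals, whereas Clec7a overlaps between all groups and PT replicate 1 is the highest array for every gene except Clec7a.

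Clec4e, the sensor of glycolipids and cell death, showed the largest difference from Ctrl among the 6 genes in both injured groups. Its log2 values were 8.00, 7.19 and 8.11 in PT + HS replicates 1 to 3, 9.04, 6.55 and 7.70 in PT replicates 1 to 3, and 5.70, 4.69 and 4.21 in Ctrl replicates 1 to 3. Every injured animal lay above every Ctrl animal, PT replicate 1 was the highest of all, and PT + HS lay within the range of PT. PT + HS averaged 7.77 ± 0.505, PT 7.76 ± 1.24 and Ctrl 4.87 ± 0.763 (SD, n = 3 each). PT + HS minus Ctrl was 2.90 (standard error 0.59, 95% interval 1.59 to 4.21, unadjusted p = 0.000623 and adjusted p = 0.297 from limma), a 7.45-fold higher level. PT minus Ctrl was 2.90 as well (standard error 0.59, 95% interval 1.59 to 4.20, unadjusted p = 0.000626 and adjusted p = 0.374 from limma), or 7.44-fold. Between PT + HS and PT the difference was 0.00144, with a 95% interval of -1.31 to 1.31 (unadjusted p = 0.998 from limma), so that the order of these groups is not settled. Without PT replicate 2, PT minus Ctrl was 3.50 and PT + HS minus PT was -0.60 (unadjusted p = 0.244 from limma). The other probe set of Clec4e gave smaller differences in the same directions, 1.54 for PT + HS minus Ctrl and 1.37 for PT minus Ctrl, both past the thresholds, and 0.16 for PT + HS minus PT.

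Clec4d, the partner of Clec4e, followed the same order of animals in the injured groups with less spread. It had 11.23, 10.37 and 11.25 in PT + HS replicates 1 to 3, 11.36, 9.91 and 10.87 in PT replicates 1 to 3, and 9.17, 9.09 and 8.56 in Ctrl replicates 1 to 3. All 6 injured animals were above all Ctrl animals, and the injured groups overlapped with each other. The means were 10.95 ± 0.500 in PT + HS, 10.71 ± 0.741 in PT and 8.94 ± 0.331 in Ctrl (SD, n = 3 each). Clec4d was 4.04-fold higher in PT + HS than in Ctrl, a log2 difference of 2.01 (standard error 0.38, 95% interval 1.17 to 2.86, unadjusted p = 0.000357 and adjusted p = 0.224 from limma). It was 3.42-fold higher in PT than in Ctrl, a log2 difference of 1.78 (unadjusted p = 0.000889 from limma), and 2.18 without PT replicate 2. PT + HS minus PT was 0.24 (95% interval -0.61 to 1.08, unadjusted p = 0.543 from limma), and -0.17 without PT replicate 2. The array annotation gives this probe set a name that marks sequences shared by several transcripts, so that a part of the signal may come from a related transcript, which was not tested.

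Clec4n, the receptor for fungal mannans, was higher than in Ctrl in both injured groups, with 1 PT animal far above the rest. Its values were 6.81, 6.25 and 6.31 in PT + HS replicates 1 to 3, 8.05, 6.33 and 5.62 in PT replicates 1 to 3, and 4.95, 4.56 and 4.63 in Ctrl replicates 1 to 3. Again no injured animal overlapped with Ctrl, and the 3 PT + HS animals lay between the highest and the lowest PT animal. PT + HS averaged 6.46 ± 0.305, PT 6.67 ± 1.25 and Ctrl 4.71 ± 0.208 (SD, n = 3 each). The log2 difference was 1.74 for PT + HS minus Ctrl (standard error 0.50, unadjusted p = 0.0061 and adjusted p = 0.606 from limma), or 3.35-fold. For PT minus Ctrl it was 1.96 (unadjusted p = 0.00306 from limma), or 3.88-fold, and this call was lost with the methods' t-test. Without PT replicate 2 the PT difference was 2.12 and without PT replicate 1 it was 1.26, both past the thresholds in limma. PT + HS minus PT was -0.21 (95% interval -1.33 to 0.91, unadjusted p = 0.681 from limma), -0.38 without PT replicate 2 and 0.48 without PT replicate 1. Clec4n's other probe set gave 2.21 for PT + HS minus Ctrl and 2.07 for PT minus Ctrl, and for PT + HS minus PT it gave 0.14, of opposite sign. The probe set used here again has a name that marks shared sequences.

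Clec5a, the receptor that signals through Tyrobp, was measured weakly, with a mean over the 9 arrays of 4.05 where the median of the means of all genes was 4.29. Its values were 4.65, 4.03 and 4.78 in PT + HS replicates 1 to 3, 5.58, 3.62 and 3.60 in PT replicates 1 to 3, and 3.46, 3.63 and 3.11 in Ctrl replicates 1 to 3. The PT + HS animals were all above Ctrl, whereas in PT only replicate 1 was clearly higher and the other 2 lay within the Ctrl range. PT + HS averaged 4.49 ± 0.400, PT 4.27 ± 1.14 and Ctrl 3.40 ± 0.266 (SD, n = 3 each). PT + HS minus Ctrl was 1.09 (standard error 0.48, 95% interval 0.02 to 2.15, unadjusted p = 0.0462 and adjusted p = 0.999 from limma), or 2.13-fold. This call rests on single arrays, since the unadjusted p in limma lay between 0.0632 and 0.127 when any Ctrl replicate, PT + HS replicate 1 or PT + HS replicate 3 was left out. PT minus Ctrl was 0.87 (unadjusted p = 0.099 from limma), 1.19 without PT replicate 2 and 0.21 without PT replicate 1. The difference between PT + HS and PT was 0.22 (95% interval -0.85 to 1.28). Without PT replicate 2 it was -0.10 and without PT replicate 1 it was 0.88, which passed the thresholds (unadjusted p = 0.00953 from limma).

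Clec4a2, the inhibitory receptor, resembled Clec5a. It had 6.67, 5.55 and 5.96 in PT + HS replicates 1 to 3, 6.99, 5.13 and 4.71 in PT replicates 1 to 3, and 4.95, 5.10 and 4.48 in Ctrl replicates 1 to 3. PT + HS lay above Ctrl without overlap, and PT spanned from within the Ctrl range to the highest value of all. The means were 6.06 ± 0.567 in PT + HS, 5.61 ± 1.22 in PT and 4.84 ± 0.322 in Ctrl (SD, n = 3 each). PT + HS minus Ctrl was 1.22 (standard error 0.53, 95% interval 0.04 to 2.40, unadjusted p = 0.0437 and adjusted p = 0.999 from limma), or 2.33-fold, and was lost at the thresholds when any Ctrl replicate, PT + HS replicate 1 or PT + HS replicate 3 was left out (unadjusted p between 0.0603 and 0.153 in limma). PT minus Ctrl was 0.77 (unadjusted p = 0.175 from limma), 1.01 without PT replicate 2 and 0.08 without PT replicate 1. PT + HS minus PT was 0.45 (95% interval -0.73 to 1.63, unadjusted p = 0.414 from limma) and 0.21 without PT replicate 2. It was 1.14 without PT replicate 1 and then passed the thresholds (unadjusted p = 0.0089 from limma). The other probe set of Clec4a2, with a mean of only 3.97, gave 0.54 for PT + HS minus Ctrl, 0.68 for PT minus Ctrl and -0.14 for PT + HS minus PT. Its calls were the other way round, since PT minus Ctrl passed (unadjusted p = 0.0227 from limma) and PT + HS minus Ctrl did not (unadjusted p = 0.0581 from limma). A further probe set, which also carries the symbol Clec4b1, was left out, since near-identical genes of this cluster may share signal.

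Clec7a, the beta-glucan receptor, was the receptor gene whose groups overlapped in every comparison. Its values were 10.50, 9.36 and 10.09 in PT + HS replicates 1 to 3, 10.16, 8.95 and 10.11 in PT replicates 1 to 3, and 9.51, 9.02 and 9.57 in Ctrl replicates 1 to 3. In each injured group the second replicate lay within or below the Ctrl range and the other 2 animals above it. PT + HS averaged 9.99 ± 0.575, PT 9.74 ± 0.686 and Ctrl 9.37 ± 0.302 (SD, n = 3 each). The differences were 0.62 for PT + HS minus Ctrl (95% interval -0.22 to 1.45, unadjusted p = 0.132 from limma), 0.37 for PT minus Ctrl (unadjusted p = 0.341 from limma) and 0.24 for PT + HS minus PT (95% interval -0.60 to 1.08). Without PT replicate 2, PT minus Ctrl was 0.77 and passed the thresholds (unadjusted p = 0.0311 from limma), as did PT + HS minus Ctrl at an unchanged 0.62 (unadjusted p = 0.0489 from limma), where only the estimate of the spread had changed. With a replicate block PT + HS minus Ctrl had an unadjusted p of 0.0158 from limma. PT + HS minus PT was -0.15 without that array. PT + HS minus Ctrl was 0.93 without PT + HS replicate 2 (unadjusted p = 0.0381 from limma). The interval for PT + HS minus Ctrl includes 0 as well as a doubling, and whether Clec7a differs from the other receptors in its response was not tested.

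**Figure D2:**
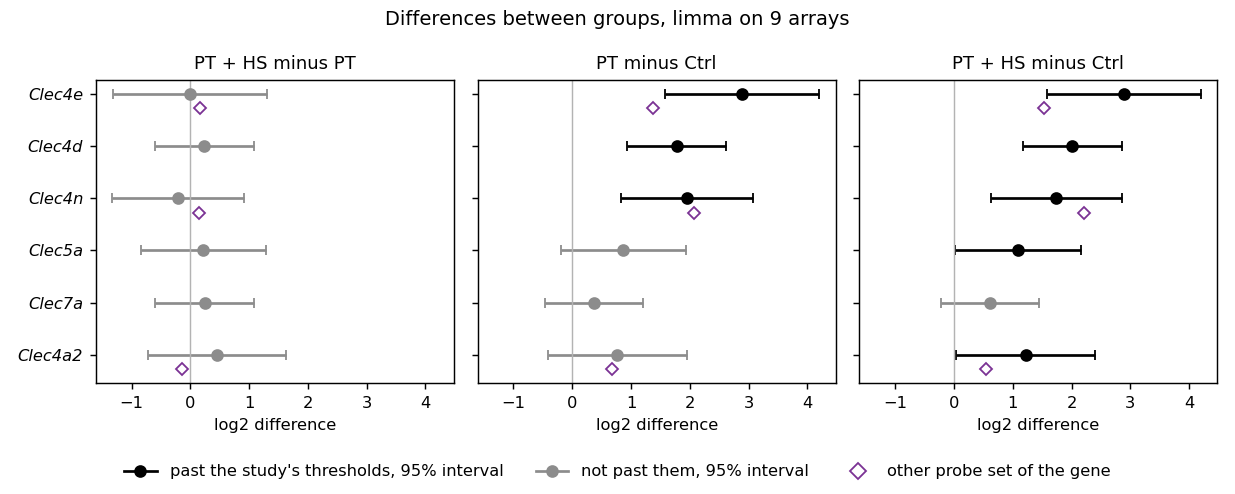
Differences between groups for each receptor gene on the log2 scale (horizontal axis) with their 95% intervals from limma, black where the study's thresholds were passed, and open diamonds for other probe sets of the same gene. In PT + HS minus Ctrl 5 intervals lie above 0, in PT minus Ctrl 3, and in PT + HS minus PT all 6 include 0.

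Between animals the receptor genes moved together only in part. PT replicate 1 was the highest PT animal for 6 of 6 genes and the highest of all 9 animals for 5, with PT + HS replicate 1 highest for Clec7a. Among the PT + HS animals replicate 2 was the lowest for 6 of 6 genes. In PT the lowest animal was replicate 2 for Clec4e, Clec4d and Clec7a and replicate 3 for Clec4n, Clec5a and Clec4a2. Relative to the Ctrl mean, the median over the 6 genes was 1.96, 1.07 and 1.49 in PT + HS replicates 1 to 3, 2.30, 0.63 and 0.83 in PT replicates 1 to 3, and 0.19, -0.001 and -0.33 in Ctrl replicates 1 to 3. The spread within PT was therefore wider than the gap between the means of PT + HS and PT for every receptor gene.

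The pairs of genes that followed each other most closely over the 9 arrays were Clec4d with Clec4e (Pearson r = 0.979) and Clec4a2 with Clec5a (r = 0.956). After the group means were taken off, these pairs still had r of 0.922 and 0.939. Clec4a2 with Clec4n had 0.872 over the levels and 0.937 over the deviations from the group means. The least alike were Clec7a and Clec4n, with 0.523 and 0.335. These values describe 9 arrays that share 3 groups and 1 normalization. Among genes brighter than the median gene, those most like Clec4e were Ccr1 (r = 0.988), Socs3 (0.979) and Clec4d. For Clec4d they were Retnla (0.991), Arg2 (0.988) and Chil1 (0.984), and for Clec4n Ifi204 (0.975), Ms4a6c (0.963) and Fndc3b (0.954). Clec5a was most like Ahr (0.967), Ltbr (0.965) and Clec4a2 (0.956), Clec4a2 like Cdc20 (0.982), Igsf6 (0.982) and Hrh2 (0.961), and Clec7a like Camk2g (0.981), Akt1 (0.974) and Atp2b1 (0.955), each r over 9 arrays.

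Many but not all markers of neutrophils moved in the same arrays. At the study's thresholds 10 of the 16 neutrophil markers on the arrays were higher for PT + HS minus Ctrl, against 1.99% of all genes. For PT minus Ctrl 8 were higher, against 1.41% of all genes, and 10 without PT replicate 2. The median differences of the list were 1.26 and 1.0, and none of the markers passed between PT + HS and PT. Mmp8, a collagenase of neutrophil granules, differed by 4.75 for PT + HS minus Ctrl and Il1r2, a decoy receptor for interleukin-1, by 4.61. Relative to the Ctrl mean, the median of the neutrophil markers was 1.56, 0.69 and 1.57 in PT + HS replicates 1 to 3, 1.62, 0.43 and 1.17 in PT replicates 1 to 3, and 0.46, -0.25 and -0.19 in Ctrl replicates 1 to 3. Their summed level on the log2 scale ranged over 13.34 to 14.59 in PT + HS, 12.89 to 14.26 in PT and 12.13 to 13.01 in Ctrl. Mpo and Elane, which mark neutrophil precursors, were weakly measured, with means of 3.58 and 3.87, and passed in no comparison. Ltf, Camp, Ngp and Mmp9 passed in no comparison either, at 0.16, -0.10, 1.81 and 0.85 for PT + HS minus Ctrl. Ltf and Camp were highest in Ctrl replicate 1. Replicate 2 was the lowest animal of both injured groups in the median of the neutrophil markers.

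The monocyte markers split. For PT + HS minus Ctrl 4 of 15 measured ones were higher and 1 was lower, against 1.99% and 1.29% of all genes. For PT minus Ctrl 4 were higher and 4 lower, against 1.41% and 2.26% of all genes. Without PT replicate 2 these counts were 3 higher and 5 lower. Ccr2, Ms4a6c, Cd14 and Fcgr1, genes of classical and activated monocytes, were higher in both injured groups, by 1.64, 1.26, 2.56 and 1.97 for PT + HS minus Ctrl. Cx3cr1, Nr4a1, Treml4 and Klf4, genes of patrolling monocytes, were lower in PT than in Ctrl, with differences of -1.29, -1.32, -1.17 and -0.94. Of these, Nr4a1, Treml4 and Klf4 passed for PT + HS minus PT, with 0.86, 0.72 and 0.67. Among all genes 0.726% were higher and 0.396% lower there. The calls of Nr4a1 and Klf4 in this last comparison were lost with the methods' t-test and when PT replicate 3, PT + HS replicate 1 or 2 or Ctrl replicate 1 was left out, and Klf4 also without any other Ctrl replicate. In the same comparison 6 monocyte markers were higher without PT replicate 2. The summed level of the monocyte markers was 13.72 to 13.92 in PT + HS, 13.31 to 14.20 in PT and 13.38 to 13.62 in Ctrl. PT replicate 1 had the highest and PT replicate 3 the lowest sum, as they had the highest and the lowest Clec4n, Clec5a and Clec4a2 of the PT group. The part of cell numbers in the receptor differences was not tested.

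**Figure D3:**
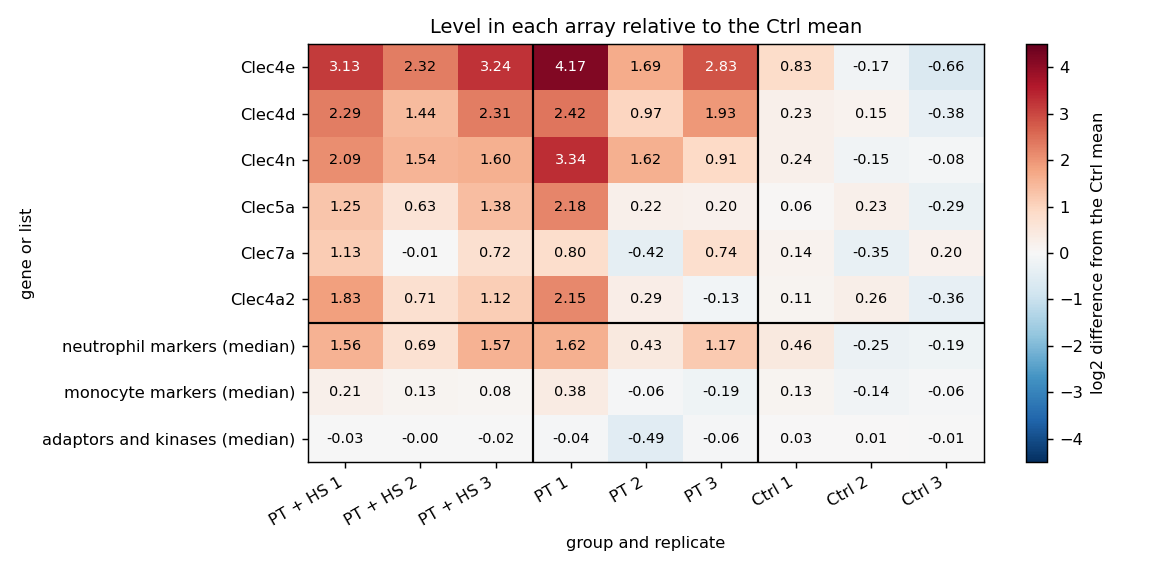
Level of each receptor gene, and median level of 3 gene lists, in each animal relative to the Ctrl mean on the log2 scale (colour and printed value, red above and blue below Ctrl). PT replicate 1 has the highest value of each row except for Clec7a and the adaptors and kinases. The median of the adaptors and kinases stays within 0.062 of the Ctrl mean except in PT replicate 2 at -0.495, while single genes of that list differ more.

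The partners through which the receptors signal were read next. Of 17 measured adaptors and kinases, out of 20 listed, 2 were higher in PT + HS than in Ctrl at the study's thresholds, against 1.99% of all genes, none lower, and the median difference was -0.006. In PT minus Ctrl 1 was lower, against 2.26% of all genes, and none higher, with a median of -0.04. Between PT + HS and PT none passed. Fcer1g, the adaptor of Clec4e, Clec4d and Clec4n, had 10.72, 10.29 and 10.64 in PT + HS replicates 1 to 3, 10.66, 10.09 and 9.96 in PT replicates 1 to 3, and 10.42, 10.33 and 10.02 in Ctrl replicates 1 to 3. The groups overlapped, and PT + HS minus Ctrl was 0.29 with a 95% interval of -0.21 to 0.80. Tyrobp, the adaptor of Clec5a, had 11.43, 10.81 and 11.12 in PT + HS replicates 1 to 3, 11.34, 10.47 and 10.72 in PT replicates 1 to 3, and 10.62, 10.47 and 10.48 in Ctrl replicates 1 to 3. It did not overlap between PT + HS and Ctrl and was higher there by 0.60 (standard error 0.24, unadjusted p = 0.0348 from limma), a call that was lost when PT + HS replicate 1 or 3 or any Ctrl replicate was left out. Fgr, a Src-family kinase of myeloid cells, was higher by 0.67 in PT + HS than in Ctrl (standard error 0.22, unadjusted p = 0.014 from limma), which was lost without PT + HS replicate 3.

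Syk, the kinase that all these activating receptors share, differed by -0.31 for PT + HS minus Ctrl (95% interval -0.90 to 0.28) and by -0.35 for PT minus Ctrl. Its groups overlapped. Plcg2, a phospholipase downstream of Syk that B cells use as well, was lower in PT than in Ctrl, with a difference of -0.90 (standard error 0.17, unadjusted p = 0.000382 from limma). In PT + HS it was -0.56 from Ctrl, which is less than 1.5-fold (unadjusted p = 0.00851 from limma). Malt1 was -0.76 for PT + HS minus Ctrl and -0.71 for PT minus Ctrl and did not pass. B cell markers fell in the same blood, where 1.29% of all genes were lower for PT + HS minus Ctrl and 2.26% for PT minus Ctrl. Of 9 measured markers 8 were lower in PT + HS than in Ctrl and the same number in PT than in Ctrl. Their median differences were -1.50 and -1.63. For PT minus Ctrl 6 were lower without PT replicate 2. Their part in the values of Plcg2 and Malt1 was not tested.

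Of 9 inhibitory phosphatases and regulators none passed between PT + HS and Ctrl or between PT + HS and PT. Among all genes 1.99% were higher and 1.29% lower for PT + HS minus Ctrl. These shares were 1.41% and 2.26% for PT minus Ctrl, and 0.726% and 0.396% for PT + HS minus PT. Ptpn6, the phosphatase recruited by Clec4a2, was lower in PT than in Ctrl, with a difference of -0.87 (standard error 0.25, unadjusted p = 0.00577 from limma), and -0.70 without PT replicate 2. Without that array 3 members of the list were higher and 1 lower for PT minus Ctrl, 1 was higher for PT + HS minus Ctrl and 1 lower for PT + HS minus PT. With all arrays Ptpn6 was -0.38 for PT + HS minus Ctrl and 0.49 for PT + HS minus PT, without passing. Dusp1, a phosphatase that ends MAP kinase signaling, was 1.10 for PT + HS minus Ctrl (unadjusted p = 0.0925 from limma).

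Transcription factors of myeloid cells were read as regulators of such receptors. Of 9 measured ones 5 were higher in PT + HS than in Ctrl at the thresholds, against 1.99% of all genes, and none lower, with a median difference of 0.73. Cebpb, known as a regulator of Mincle in macrophages, had 9.48, 9.15 and 9.67 in PT + HS replicates 1 to 3, 9.81, 8.41 and 8.57 in PT replicates 1 to 3, and 8.58, 8.16 and 8.07 in Ctrl replicates 1 to 3. PT + HS lay above Ctrl without overlap, by 1.16 (standard error 0.34, unadjusted p = 0.00717 and adjusted p = 0.639 from limma), whereas in PT only replicate 1 lay above all Ctrl animals. Cebpd, Cebpa and Spi1 were higher by 1.11, 0.82 and 0.73 in PT + HS than in Ctrl, and Hif1a, the oxygen-sensing factor, by 1.10. Cebpd, Cebpa, Spi1 and Hif1a lost these calls when single arrays were left out, among them Ctrl replicate 2 for each. The methods' t-test gave Cebpa and Spi1 an unadjusted p of 0.0559 and 0.111 for PT + HS minus Ctrl, so both calls were lost with it. Spi1 overlapped between PT + HS and Ctrl. For PT minus Ctrl, Hif1a was higher, with a difference of 1.18, and Klf4 and Nr4a1 were lower. The Hif1a call was lost with the methods' t-test, without PT replicate 1 and without Ctrl replicate 2, and without PT replicate 2 the list had 3 higher and 2 lower. Of Cebpa, Cebpb and Cebpd, Cebpa alone passed between PT + HS and PT, at 1.16 (standard error 0.33, unadjusted p = 0.00533 from limma), a comparison in which none of the receptor genes passed.

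**Figure D4:**
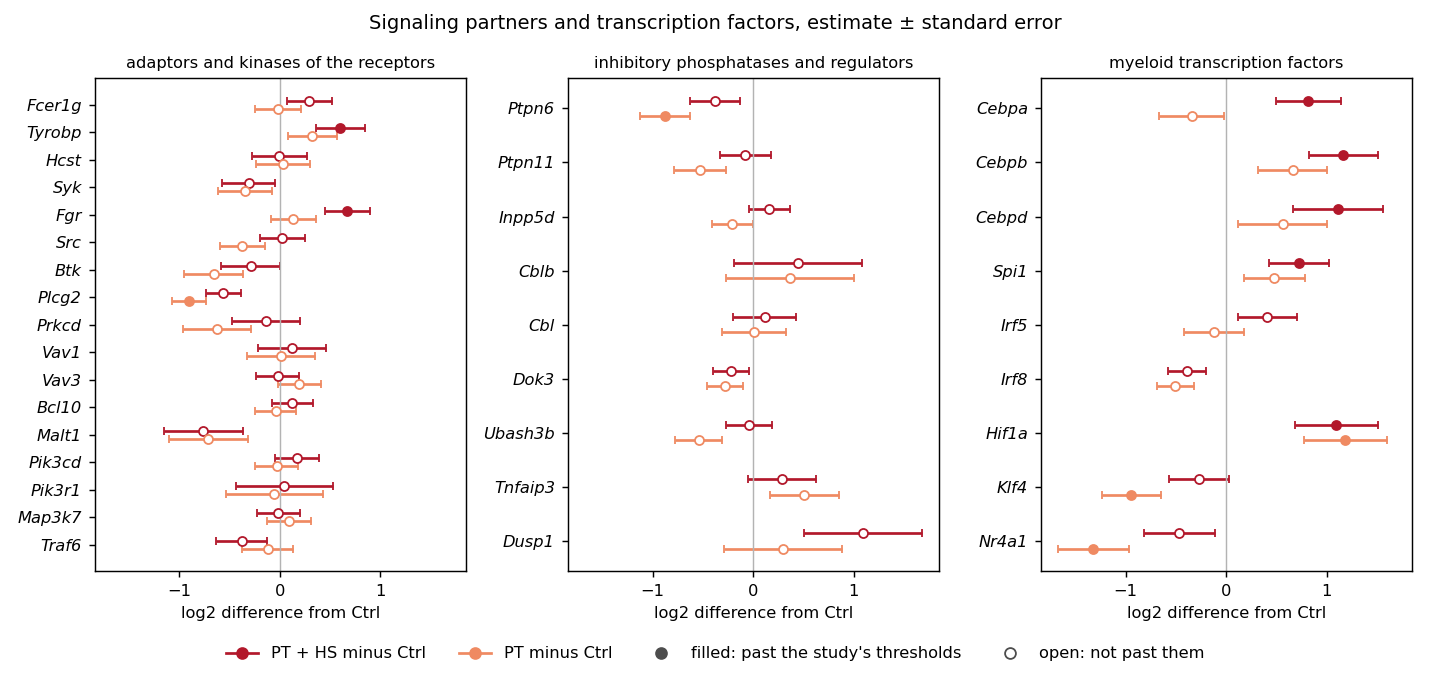
Differences from Ctrl on the log2 scale (horizontal axis, estimate ± standard error from limma) for adaptors and kinases, for inhibitory regulators and for transcription factors, in PT + HS (red) and PT (orange), filled where the study's thresholds were passed. Tyrobp and Fgr are the filled adaptors and kinases of PT + HS, and 5 transcription factors are filled for PT + HS above 0.

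Genes known to be induced by the receptors were read as a list. Of 20 target genes, 12 of which were weakly measured, 1 was higher (Il1rn) and 1 lower (Nfatc1) for PT + HS minus Ctrl. Over all genes 1.99% were higher and 1.29% lower there. For PT minus Ctrl 1 target gene was higher and 1 lower as well, against 1.41% and 2.26% of all genes. Without PT replicate 2 there were 2 higher and 1 lower for PT + HS minus Ctrl, and 1 higher and 2 lower for PT minus Ctrl. For PT + HS minus PT 1 target gene (Ccl3) was higher, against 0.726% of all genes. Il1rn, which encodes the interleukin-1 receptor antagonist, was 1.22 for PT + HS minus Ctrl (standard error 0.28, unadjusted p = 0.00162 from limma) and 0.79 for PT minus Ctrl, both past the thresholds, the second not without PT replicate 1 or with the methods' t-test. Il1b overlapped between the groups, with 0.70 for PT + HS minus Ctrl (95% interval -0.46 to 1.86) and -0.03 for PT minus Ctrl. Ccl3, a chemokine, was 0.59 for PT + HS minus PT (standard error 0.19, unadjusted p = 0.0113 from limma) at a weak mean level of 3.73, and this call was lost without PT replicate 2 (0.52), PT + HS replicate 2 or PT + HS replicate 3. Nfatc1 was the target gene that was lower, at -0.60 for PT + HS minus Ctrl and -0.59 for PT minus Ctrl. With the mean of all its probe sets the difference was -0.07 for PT + HS minus Ctrl.

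Among the 6 endogenous ligands none passed between PT + HS and Ctrl. Sap130, the ligand of Clec4e, was 0.24 for PT + HS minus Ctrl and -0.08 for PT minus Ctrl, and the annexin Anxa1, of a family that Clec7a binds on dying cells, was 0.64 and 0.03. Vim, another protein reported to bind Clec7a, passed for PT minus Ctrl at -0.66 with overlap between the groups, and did not pass without PT replicate 2 (-0.38), without PT replicate 3, Ctrl replicate 2 or Ctrl replicate 3, or with the methods' t-test.

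A list of other C-type lectin and lectin-like genes was not limited to receptors of myeloid cells. Of 25 measured ones, out of 30 listed, 1 was higher and 1 lower for PT + HS minus Ctrl, against 1.99% and 1.29% of all genes. Their median difference was 0.007, and 17 of the 25 were below the median level of all genes. Clec4a3, a gene of the same cluster and family as Clec4a2, was higher by 1.0 in PT + HS than in Ctrl (standard error 0.44, unadjusted p = 0.0476 from limma), with overlap between the groups. This call was lost with the methods' t-test and without PT + HS replicate 1 or 2 or Ctrl replicate 2 or 3. Clec4b1, which lies beside Clec4a2 on the chromosome, had 0.64 for PT + HS minus Ctrl (unadjusted p = 0.05 from limma) at a weak mean level of 3.37. Cd302 had 0.81 and did not pass. Clec2i, a lectin-like ligand of NK cell receptors, passed for both injured groups at -0.93 each. In PT it overlapped with Ctrl, and that call was lost without PT replicate 2 (-0.60), PT replicate 1 or Ctrl replicate 2 and with the methods' t-test. In PT + HS the call was lost without PT + HS replicate 1 or Ctrl replicate 2. The counts without PT replicate 2 were 3 higher and 1 lower for PT + HS minus Ctrl, and 1 higher for PT minus Ctrl.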

How the data were processed

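The authors prepared the deposited log2 expression values from 9 blood arrays by robust multiarray average, with background correction, quantile normalization between arrays and 1 value per probe set. For their software the version is not given in the sources used here. A different array type than that of the probe set names is stated in the paper. Of 45101 probe sets, 932 with several gene symbols and 9211 with none were left out. The probe set with the highest mean was taken for each of 18194 genes. limma 3.58.1 in R 4.3.3 was fitted with 1 mean per group, and the fit was tested on simulated data. Dim genes were kept. No batch or scan date is given. Members, gene lists and tests were chosen with earlier results of these data known. Named are the 6 receptor genes, from each list up to 4 genes with the smallest p for PT + HS minus Ctrl together with those past the thresholds between PT + HS and PT, and the 3 genes most like each receptor gene. Other genes given for background (Fcer1g, Syk, Spi1, Il1b, S100a8, Cd3e, Mpo, Elane, Ltf, Camp, Ngp, Mmp9, Cx3cr1) were chosen after their values were seen. The lists cover adaptors and kinases, inhibitory regulators, other C-type lectin and lectin-like genes, target genes, endogenous ligands, transcription factors and markers of blood cell types. The alternatives were the methods' t-test, array weights, a variance trend, other normalizations, probe set choices, thresholds, a replicate block and leaving out each array.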

Additional observations from a re-analysis of the deposited data

How the results depend on the processing

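The number of receptor genes past the study's thresholds depended on single arrays, which is the main limit with 3 animals per group. Leaving out each array in turn gave 3 to 6 genes for PT + HS minus Ctrl (5 with all arrays), 3 to 5 for PT minus Ctrl (3 with all arrays) and 0 to 2 for PT + HS minus PT (0 with all arrays). Clec4e, Clec4d and Clec4n passed against Ctrl in both injured groups whichever array was left out. With array weights, which give PT replicate 1 86.9% of the weight in its group, 6 genes passed for PT minus Ctrl and 2 for PT + HS minus PT. The 2 were Clec4e at -1.05 and Clec4n at -1.31. At an adjusted p under 0.05, 0 genes passed in each comparison. The methods' t-test gave 5, 2 and 0 genes for PT + HS minus Ctrl, PT minus Ctrl and PT + HS minus PT, without Clec4n for PT minus Ctrl. The labels do not say whether the replicate numbers pair the animals. Deviations of animals with the same number correlated at -0.115 to 0.478. Animals with different numbers were not compared, so these values cannot decide it. With a replicate block 6 genes passed for PT + HS minus Ctrl, 3 for PT minus Ctrl and 0 for PT + HS minus PT.

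The sign changed only between PT + HS and PT. With array weights it became -1.05 for Clec4e, -0.30 for Clec4d, -0.83 for Clec5a, -0.12 for Clec7a and -0.65 for Clec4a2, and with repeated quantile normalization -0.039 for Clec4e. Leaving out 1 array gave -0.60 to 0.64 for Clec4e, -0.17 to 0.56 for Clec4d, -0.74 to 0.48 for Clec4n, -0.11 to 0.88 for Clec5a and -0.15 to 0.55 for Clec7a. The cause was not tested. Of the differences of single receptor genes under the alternatives, 307 kept direction and side of the threshold, 16 changed sign, 14 newly passed and 20 no longer passed.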

Other observations

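Genes of other blood cells were read in the same arrays as markers. Over all genes 1.99% were higher and 1.29% lower at the study's thresholds for PT + HS minus Ctrl. The shares were 1.41% and 2.26% for PT minus Ctrl, and 0.726% and 0.396% for PT + HS minus PT. None of 11 measured T cell markers passed the study's thresholds in any comparison, but without PT replicate 2 there were 5 higher for PT minus Ctrl, 1 higher for PT + HS minus Ctrl and 3 lower for PT + HS minus PT. Of 7 NK cell markers 2 were lower in PT + HS than in Ctrl and 4 in PT than in Ctrl, and Gzma, a granule protease, was higher by 1.03 in PT + HS than in PT. That comparison had no NK cell marker higher and 1 lower without PT replicate 2. Of 7 dendritic cell markers, Flt3 was higher and Tcf4 lower in PT + HS than in Ctrl, with differences of 0.70 and -0.97. Batf3, which marks cross-presenting dendritic cells, was higher by 1.02 in PT + HS than in PT at a weak mean level of 3.58. Without PT replicate 2 that comparison had 1 dendritic cell marker higher and 1 lower. Of 9 eosinophil and basophil markers, 8 of them weakly measured, Fcer1a and Gata2 were lower in PT than in Ctrl, with differences of -0.64 and -0.70, and Gata2 was 0.64 for PT + HS minus PT and -0.06 for PT + HS minus Ctrl. Without PT replicate 2, 1 of them was lower for PT minus Ctrl and none passed for PT + HS minus PT. Of 7 platelet markers 1, Gp5, was lower in PT than in Ctrl at the thresholds. None of the 7 had a positive difference there, and their median difference was -0.45. None of 6 red cell precursor markers passed in any comparison.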
